A study of Mus musculus with 6 samples.

Results

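Acetylated histone H3 (H3ac), a mark of open and active chromatin, was examined at 10 genes of the adipocyte lineage in mouse mesenchymal stem cells (MSCs). The genes were Pparg, Cebpa, Cebpb, Cebpd, Zfp423, Ebf1, Ebf2, Lpl, Fabp4 and Adipoq. A called region counted for a gene when it overlapped the gene body extended by 5 kb on both sides (GENCODE M21 annotation, mm10 coordinates). This took 39 of the 24431 regions, and each of the 10 genes had at least 1.

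The marks were profiled by CUT&RUN, in which an antibody tethers a nuclease to marked chromatin and the released fragments are sequenced. Of the 6 libraries, 2 came from Young MSCs (mice of 3 to 5 months, untreated), 2 from Old MSCs (mice of 18 to 22 months, untreated) and 2 from OldAcetate MSCs (mice of 18 to 22 months, kept for 3 days with sodium acetate at 5 mM). The cultures were held at 2% oxygen in αMEM with fetal bovine serum and antibiotics, and the labels name neither strain nor sex. The labels do not say whether the 2 libraries of a group came from separate mice or cultures, so that the p-values measure the spread between these libraries, which may be technical.

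Fat cells arise from mesenchymal precursors in steps. C/EBPβ and C/EBPδ act first and help switch on PPARγ and C/EBPα, which maintain each other and activate the genes of lipid uptake, storage and secretion. Zfp423 and the EBF factors act before this cascade, in the commitment of precursor cells. Lpl, Fabp4 and Adipoq are products of the differentiated cell, although Lpl is also made by precursors and other tissues.

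Levels are in RPM, reads of a region scaled to the depth of the library, and densities are RPM per kb of region. Library totals ran from 2163351 to 3039481 reads. A member region held between 2 and 334 reads in a library, with a median of 49, at which counting error alone is 14.3% of the value. The share of a library that fell in the regions of the whole table was 64.8% and 57.8% (Young), 49.9% and 45.9% (Old) and 57.3% and 56.3% (OldAcetate). This share was lowest in Old, as most unscaled levels below were, and its part in them was not tested.

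The label of the cells was checked first. All 10 of 10 markers of mesenchymal stem or stromal cells, among them Pdgfra, Ly6a and Prrx1, had H3ac over a start site. Among hematopoietic markers, Spi1, Csf1r and Cd68 had a covered start, and Ptprc, Itgam and Cd3e had no region. Of 5 endothelial markers, 0 had a covered start and 3 had a region elsewhere, summing to 64.1 to 69.4 RPM (Young), 44.5 to 49.5 (Old) and 58.1 to 60.1 (OldAcetate). Of 6 markers of the mature fat cell, Plin1 and Fabp4 had a covered start and Adipoq, Cidec, Lep and Cfd had none, and the sums were 91.5 to 94.8 RPM (Young), 62.8 to 92.4 (Old) and 80.1 to 89.7 (OldAcetate).

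H3ac lay over a coding start site of 9 of the 10 genes, and Adipoq was the exception. Over all 21938 protein-coding genes, 64.5% had a region and 56.3% a covered start. Sequence upstream of the uncovered starts of Pparg and Adipoq is shown beside that of 3 covered starts, since coverage of the start is where the members differ most plainly. Each line gives the 250 bases before a RefSeq start (GRCm38.p6), 5′ to 3′ on the strand of the gene, with CpG dinucleotides in capitals. None of the 5 windows overlaps an annotated exon.
Pparg, internal start, not covered (chr6:115421816-115422065, plus strand): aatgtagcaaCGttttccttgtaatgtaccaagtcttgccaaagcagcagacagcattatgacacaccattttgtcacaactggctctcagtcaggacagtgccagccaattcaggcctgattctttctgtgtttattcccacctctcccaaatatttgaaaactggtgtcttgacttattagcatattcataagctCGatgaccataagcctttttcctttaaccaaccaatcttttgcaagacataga
Adipoq, not covered (chr16:23146286-23146535, plus strand): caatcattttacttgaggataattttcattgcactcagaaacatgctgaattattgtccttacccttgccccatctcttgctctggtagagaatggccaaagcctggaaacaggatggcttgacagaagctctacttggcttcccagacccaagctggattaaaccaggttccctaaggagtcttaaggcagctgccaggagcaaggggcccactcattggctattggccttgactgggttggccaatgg
Cebpa, covered (chr7:35119043-35119292, plus strand): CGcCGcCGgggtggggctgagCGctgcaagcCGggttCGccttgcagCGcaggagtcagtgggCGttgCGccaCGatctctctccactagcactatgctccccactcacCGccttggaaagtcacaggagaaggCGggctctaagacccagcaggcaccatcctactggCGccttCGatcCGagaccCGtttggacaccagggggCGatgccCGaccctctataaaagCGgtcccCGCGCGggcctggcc
Cebpb, covered (chr2:167688665-167688914, plus strand): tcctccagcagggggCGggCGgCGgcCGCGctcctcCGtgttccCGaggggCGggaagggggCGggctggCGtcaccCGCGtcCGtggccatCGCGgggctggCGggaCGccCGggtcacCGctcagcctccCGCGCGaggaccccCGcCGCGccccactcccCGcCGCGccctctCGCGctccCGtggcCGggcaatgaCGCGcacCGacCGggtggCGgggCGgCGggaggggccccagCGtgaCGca
Zfp423, first start, covered (chr8:87959596-87959845, minus strand): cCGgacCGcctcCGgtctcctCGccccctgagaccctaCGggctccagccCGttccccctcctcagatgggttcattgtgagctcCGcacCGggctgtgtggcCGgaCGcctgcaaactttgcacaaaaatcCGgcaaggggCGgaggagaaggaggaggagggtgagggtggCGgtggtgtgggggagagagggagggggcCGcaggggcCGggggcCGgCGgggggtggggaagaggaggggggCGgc

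The uncovered windows are poor in CpG and the covered ones rich. The window of Adipoq holds 0 CpG and that of the internal Pparg start 2, against 22 for Cebpa, 41 for Cebpb and 18 for Zfp423. The ratio of observed to expected CpG was 0 and 0.204 for the uncovered windows, and 0.801, 0.985 and 0.600 for the covered ones in the same order. Over the 32841 windows of the RefSeq table, the median ratio was 0.706 where the start was covered and 0.215 where it was not. Of the 8 covered member windows, that of an internal Zfp423 start (87804439, minus strand) had the lowest ratio, at 0.236.

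Short motifs were searched on both strands of the 5 windows shown, and every match is given. The letters TTGCNNAA, a C/EBP-type motif, matched 2 times before the internal Pparg start and 1 time before the Zfp423 start, and 9.57% of all windows hold them. CCAAT matched 3 times before Adipoq and 2 times before the internal Pparg start, against 33.9% of all windows with at least 1 match. The GC box GGGCGG matched 5 times before Cebpb and 2 times before Zfp423 (32.7% of all windows), and TATAAA 1 time before Cebpa (12.4%). The EBF-type letters CCCNNGGG matched 1 time before Cebpb (11.8%). A direct repeat of AGGTCA with a 1-base gap, the form bound by PPARγ with RXR, matched in 0 of the 10 member windows of the table and in 0.0335% of all windows. Of the 10 genes, 6 had a window in the table, and Cebpd, Ebf2, Lpl and Fabp4 had none there.

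Pparg encodes the nuclear receptor PPARγ, the regulator that fat cell differentiation cannot do without. Its 3 regions were spread over the gene (chromosome 6, 115360951 to 115490399, plus strand). The first region (115360501 to 115370000) covered 3 of 5 coding starts, including the one used for the widely expressed Pparg1 transcript. The start at 115422066, from which the fat-enriched Pparg2 transcript begins, lay 30066 bp from the nearest region, and the start at 115383699 lay 1302 bp from one. The second region (115385001 to 115392000) overlapped an exon inside the gene. The third (115491001 to 115503500) began just past the 3′ end.

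The Pparg start region did not differ between Young and Old beyond its spread. Its level was 24.0 and 19.2 RPM (Young), 24.5 and 17.1 (Old) and 23.5 and 27.9 (OldAcetate), so that all groups overlapped. The region past the 3′ end had 39.5 and 41.3 RPM (Young), 26.8 and 27.0 (Old) and 28.6 and 33.0 (OldAcetate). Here both Old and both OldAcetate libraries lay below both Young libraries. Of all regions, 60.2% had both Old libraries below both Young ones, and 29.8% had both OldAcetate libraries there. Summed over the gene, Pparg was at 75.1 ± 2.74 RPM (Young), 61.6 ± 8.96 (Old) and 72.3 ± 8.11 (OldAcetate) (SD, n = 2 each).

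Cebpa, Cebpb and Cebpd encode the C/EBP transcription factors of the cascade, and each had 1 region over its start. The regions of Cebpa (chromosome 7, 35116501 to 35146500) and Cebpb (chromosome 2, 167684001 to 167718500) were 30 and 34.5 kb long, although the genes themselves span 2636 and 1504 bp. With the 22.5-kb start region of Ebf1, they made 3 member regions of 20 kb or more, a length reached by 6.99% of all regions. The Cebpb region also overlapped the coding gene Tmem189 and the Cebpd region (chromosome 16, 15885501 to 15892500) the coding gene Spidr, so their reads cannot be assigned to 1 gene alone.

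The Cebpa region was at 110 and 103 RPM (Young), 85.1 and 75.2 (Old) and 91.4 and 98.4 (OldAcetate). All 3 groups were apart, with OldAcetate between the others. Over all regions, Old lay wholly below Young in 60.2%, OldAcetate wholly above Old in 47.1% and OldAcetate wholly below Young in 29.8%.

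Cebpb was at 93.1 and 68.2 RPM (Young), 53.2 and 61.6 (Old) and 81.0 and 83.8 (OldAcetate). The Old libraries were the lowest, and both OldAcetate libraries lay between the Young ones. Cebpd was at 27.6 and 33.9 RPM (Young), 22.65 and 22.67 (Old) and 33.3 and 29.6 (OldAcetate), again with Old the lowest and the other groups overlapping.

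Zfp423 encodes a zinc-finger factor of preadipocyte commitment, and its 13 regions (85.0 kb in all) ran the length of the gene (chromosome 8, 87661810 to 87959595, minus strand). Of these, 9 lay in introns, 2 over exons and 2 over starts, and 3 of 5 coding starts were covered. The region of the first start (87957001 to 87965500) was the densest of all member regions, at 4.34 RPM per kb. The other Zfp423 regions ran from 1.77 to 3.03 RPM per kb, and their mean level was between 4.91 and 48.8 RPM. The first start region had 36.5 and 40.8 RPM (Young), 27.3 and 35.0 (Old) and 42.3 and 39.2 (OldAcetate). Old was again the lowest and the other groups overlapped. The internal start region (87799501 to 87806000) had 26.6 and 11.8 RPM in Young, a spread wider than any difference between groups.

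Ebf1 and Ebf2 encode early B-cell factors, helix-loop-helix proteins that also act in fat cell precursors. Ebf1 had 12 regions covering 127.5 kb (chromosome 11, gene from 44617317 to 45008091, plus strand), of which 1 covered the start, 8 lay in introns and 3 over exons. Its start region (44609001 to 44631500) had 57.9 and 59.2 RPM (Young), 58.2 and 38.2 (Old) and 67.9 and 54.6 (OldAcetate). Old replicate 1 lay between the Young libraries and Old replicate 2 well below them.

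Ebf2 had 4 regions (chromosome 14, gene from 67233292 to 67430918, plus strand), 1 over its starts and 3 in introns. The start region (67232501 to 67241000) had 27.3 and 32.7 RPM (Young), 24.0 and 19.5 (Old) and 24.9 and 34.2 (OldAcetate). Old was the lowest group here, and the OldAcetate libraries spanned the Young ones.

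Lpl encodes lipoprotein lipase, which releases fatty acids from circulating triglycerides. Its start region (chromosome 8, 68879501 to 68884000) was short, at 4.5 kb, and dense. It had 25.3 and 18.8 RPM (Young), 12.9 and 17.1 (Old) and 18.1 and 18.4 (OldAcetate). Both OldAcetate libraries were above both Old libraries and below both Young ones. A second region of 2 kb just past the 3′ end (68907501 to 68909500) had 4.28 and 8.58 RPM in Young and overlapped between all groups.

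Fabp4 encodes the fatty acid binding protein of the fat cell cytoplasm. Its region (chromosome 3, 10205501 to 10217500) covered the start and had 32.6 and 36.8 RPM (Young), 34.7 and 20.7 (Old) and 25.5 and 28.8 (OldAcetate). The Old libraries differed more from each other than the group means did, and they enclosed both OldAcetate libraries.

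Adipoq encodes adiponectin, a hormone secreted by mature fat cells. Its region (chromosome 16, 23157001 to 23169500) overlapped only the 3′ end of the gene, and the nearest region to its start was 8536 bp away. The 3′ region had 22.7 and 26.6 RPM (Young), 20.3 and 17.9 (Old) and 22.5 and 21.7 (OldAcetate). It carried a code for Young and Old but not OldAcetate in its name, yet both OldAcetate libraries lay above both Old libraries.

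Across the 39 regions, 20 lay in introns, 10 over a start, 7 over an exon and 2 outside the gene. The names of 32 (82.1%) carried the codes of all 3 groups, read here as the groups in which a region was called, against 80.6% of all regions. The codes of 4 were Young and OldAcetate (10.3%, against 12.1% of all regions), and those of 2 were Old and Young (5.13% against 2.53%). A Zfp423 region at the 3′ end of the gene had the Young code alone (2.56% against 4.66%). Member regions were longer than usual, with a median of 8500 bp against 5500 bp, and fewer of them lay over a start (25.6% against 45.1%). Their median density was 2.56 RPM per kb against 2.70, their CpG ratio 0.242 against 0.260 and their repeat content 15.9% against 18.9%.

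Densities of the start regions were then set side by side, since levels depend on length. Zfp423 (4.34 RPM per kb), Lpl (4.10) and Cebpd (4.04) stood at or above the 94.0th percentile of all regions. Their libraries overlapped, from 3.21 to 4.98 for Zfp423, 2.88 to 5.63 for Lpl and 3.24 to 4.84 for Cebpd, so that these 3 were not apart beyond their spread. Ebf2 (3.19) and Cebpa (3.13) followed, and then Ebf1 (2.49), Fabp4 (2.49), Pparg (2.39) and Cebpb (2.13), whose libraries overlapped too. The long Cebpb region was at the 13.5th percentile. The Adipoq region, away from the start, was last at 1.76 RPM per kb and the 1.17th percentile.

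**Figure D1:**
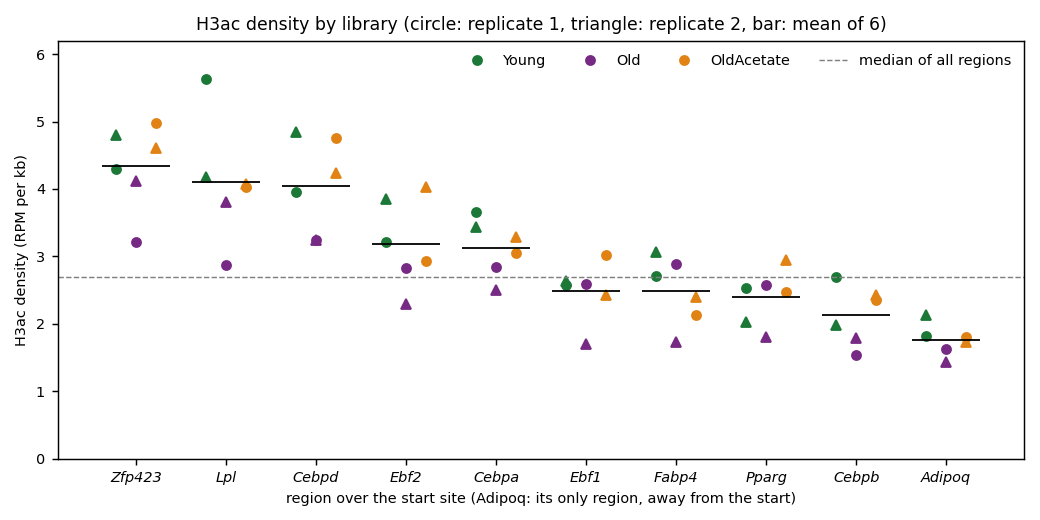
H3ac density (RPM per kb, y axis) in each of the 6 libraries for the region over the start of each gene, with genes ordered by the mean of the 6 libraries (bar). For Adipoq the only region is shown. Zfp423, Lpl and Cebpd have every library above the dashed median of all regions (2.70 RPM per kb), and Adipoq has every library below it.

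The question of the first comparison is whether H3ac at these genes differs with age. In values as given, Old was lower than Young at most of them. The regions summed to 1088 and 992 RPM in Young and to 839 and 753 RPM in Old. On the log2 scale the difference was -0.39, which placed Old at 76.5% of Young, and it exceeded the pooled replicate SD of 0.087. By exact permutation of the libraries the two-sided p was 0.3333, and 2 libraries against 2 cannot give a smaller one. All regions of the table together differed by -0.35. That sum follows the share of a library that fell in regions, which was lowest in Old. Whether a technical difference between libraries enters it was not tested. In cultures of many cells, fewer cells with the mark and less of the mark per cell cannot be told apart either.

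Both Old libraries lay below both Young libraries in 25 of the 39 regions, against 60.2% of all regions. For the summed level per gene this held in 9 of 10 genes, against 71.5% of all genes, and Fabp4 was the gene whose groups overlapped. These counts sit near the background. The regions that overlapped included the starts of Pparg, Ebf1 and Fabp4.

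**Figure D2:**
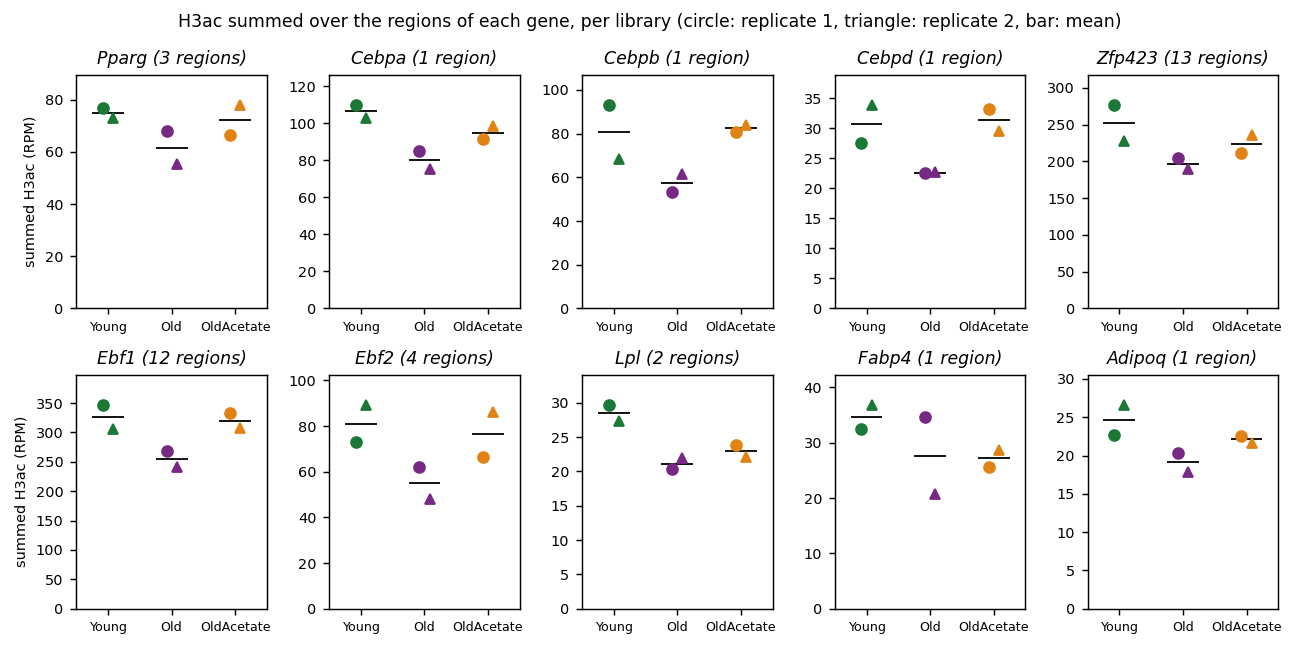
Summed H3ac (RPM, y axis from 0) over the regions of each gene in the 6 libraries, by group. Circles are replicate 1, triangles replicate 2 and bars group means. The Old libraries are the lowest of the 6 in the panels of all genes but Pparg and Fabp4, where Old replicate 1 is above OldAcetate replicate 1.

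The ratio of mean summed levels was lowest for Ebf2, with 81.0 ± 11.3 RPM in Young and 55.0 ± 9.77 in Old, or 67.9% of Young. Cebpb came next at 71.2% of Young (80.7 ± 17.6 against 57.4 ± 6.0 RPM). Cebpd was at 73.6%, Lpl at 74.1% and Cebpa at 75.3% of Young. Ebf1 had 326 ± 28.7 RPM in Young and 255 ± 19.8 in Old, and Zfp423 had 253 ± 34.2 and 197 ± 10.6, at 78.1% and 77.9% of Young. Fabp4 was at 79.8%, Adipoq at 77.6% and Pparg at 82.1% of Young, the highest ratio of the 10 (each SD with n = 2).

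Changes relative to the whole table were tested with limma on log2 values from which the shift common to all regions of a library had been subtracted. In Old vs Young, 0 of the 39 regions had a Benjamini-Hochberg adjusted p under 0.05, against 0.00819% of all regions. edgeR on the recovered reads gave 0 member regions at either threshold. Over all 24431 regions it called 5 and gave 1267 at an unadjusted p under 0.05. At an unadjusted limma p under 0.05 there was 1 member region, against 5.54% of all. The region was the Zfp423 one with the Young code alone (chromosome 8, 87662001 to 87664000). A call in Young alone favours a lower level in Old, so this p is no support for a change. It had 8.55 and 4.90 RPM in Young against 0.924 and 4.77 in Old, or 26, 12, 2 and 12 reads. Its log2 change was -1.0 ± 0.49 (SE), with an adjusted limma p of 0.894. Old replicate 1, with 2 reads, was the lowest library, and Old replicate 2 lay close to Young replicate 2. The part of single libraries in this change was not tested.

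For summed levels per gene, limma called 0 of 10 genes, against 0% of all 14155 genes with a region. At an unadjusted p under 0.05 it gave 0 of 10 in Old vs Young, against 5.15% of all genes. edgeR gave 0 of 10 at either threshold. Over all 14155 genes edgeR called 14 and gave 672 at an unadjusted p under 0.05. The scaled log2 change was -0.21 for Ebf2 (95% interval -0.49 to 0.07), -0.12 for Cebpb (-0.37 to 0.13) and -0.06 for Cebpa (-0.26 to 0.15). It was 0.06 for Pparg (-0.18 to 0.31), and -0.07 for both Cebpd and Lpl. For Zfp423 and Ebf1, the genes with most reads, it was within 0.01 of 0, with intervals of -0.15 to 0.15 and -0.13 to 0.13. For Fabp4 and Adipoq the change was also within 0.02 of 0 but the intervals were wide, at -0.39 to 0.37 and -0.39 to 0.39. Simulated for this comparison at the depth of these libraries, 200 genes with a 2-fold change were recovered at 82.0%. Those with a 1.5-fold change were recovered at 32.0%. The 200 were drawn from all genes, with 1 common dispersion and no shift of the whole table between groups. Recovery for the members, which differ in reads and in width of interval, was not simulated.

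Without that scaling, limma called 5 of the 10 genes lower in Old, against 33.1% of all genes. These were Ebf2 (log2 change -0.56 ± 0.14 (SE), limma, adjusted p = 0.00413), Cebpb (-0.47 ± 0.14, adjusted p = 0.00998), Ebf1 (-0.35 ± 0.11, adjusted p = 0.0130), Cebpa (-0.41 ± 0.14, adjusted p = 0.0172) and Zfp423 (-0.35 ± 0.12, adjusted p = 0.0173). Of the regions it called 3 lower, against 9.50% of all regions, and these were the starts of Cebpa and Cebpb and the Pparg region past the 3′ end. None of these was called after scaling, and without it the median change of the whole table was -0.35 for regions and -0.36 for genes.

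The second comparison asks whether acetate changes H3ac in old cells. OldAcetate was higher than Old at most members in values as given. The regions summed to 955 and 992 RPM in OldAcetate, which was 122% of Old (log2 difference 0.29, exact two-sided permutation p = 0.3333), while all regions of the table together differed by 0.25. Both OldAcetate libraries lay above both Old libraries in 20 of 39 regions, against 47.1% of all regions, and in 8 of 10 genes, against 63.3% of all genes. The genes whose groups overlapped were Pparg and Fabp4. The Zfp423 intron region at 87736001 to 87739500, whose code lacks OldAcetate, was the member lower in both OldAcetate libraries (6.05 and 6.26 RPM) than in both Old libraries (8.32 and 7.56 RPM). A call without OldAcetate favours such a difference, which 3.46% of all regions had.

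The ratio of mean levels was highest for Cebpb, Ebf2 and Cebpd, of which Cebpb and Cebpd share their regions with Tmem189 and Spidr. Cebpb was at 82.4 ± 2.02 RPM in OldAcetate, or 144% of Old. Ebf2 was at 76.4 ± 14.0 RPM, or 139% of Old, and Cebpd 31.4 ± 2.58 RPM, likewise 139%. Ebf1 was at 126%, Cebpa at 118%, Pparg at 117% and Zfp423 at 114% of Old. Adipoq was at 116% of Old. Among the members, the ratio was lowest for Fabp4, at 98.1% of Old (27.2 ± 2.29 RPM). Lpl came next at 109% (23.0 ± 1.24 RPM, each SD with n = 2). This did not extend to other genes of lipid handling and secreted products, a list described below. Its 25 genes with a region had a median unscaled log2 change of 0.290, against 0.278 over all genes. Differences between genes were not tested.

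After scaling, limma called 0 of 39 regions in OldAcetate vs Old, against 0% of all regions. edgeR called 0 member regions and gave 2 at an unadjusted p under 0.05. Over all 24431 regions edgeR called 0 and gave 1304 at that unadjusted p. At an unadjusted limma p under 0.05 there were 2 member regions, both higher in OldAcetate, against 6.24% of all. They were the Cebpb region (log2 change 0.28 ± 0.12 (SE), limma, adjusted p = 0.769) and an Ebf1 intron region (44682001 to 44689500; 0.49 ± 0.23, limma, adjusted p = 0.777). The Ebf1 region had 12.9 and 9.94 RPM in Old and 19.5 and 18.8 in OldAcetate.

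Per gene, limma called 0 of 10, against 0% of all genes, and gave 0 at an unadjusted p under 0.05, against 5.91% of all genes. edgeR gave 0 of 10 at either threshold. Over all 14155 genes edgeR called 0 and gave 720 at an unadjusted p under 0.05. The scaled log2 change was 0.25 for Cebpb (95% interval -0.00074 to 0.49), 0.19 for Ebf2 (-0.09 to 0.47) and 0.19 for Cebpd (-0.17 to 0.54). It was -0.26 for Fabp4 (-0.64 to 0.12), -0.16 for Lpl (-0.52 to 0.21) and -0.09 for Zfp423 (-0.24 to 0.06). Pparg, Cebpa, Ebf1 and Adipoq were between -0.07 and 0.06. Each of these intervals includes 0.

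Without scaling, limma called 3 genes higher in OldAcetate, against 7.52% of all genes, and 0 member regions, against 0.311% of all regions. The genes were Cebpb (log2 change 0.52 ± 0.14 (SE), limma, adjusted p = 0.0206), Ebf2 (0.47 ± 0.14, adjusted p = 0.0347) and Ebf1 (0.33 ± 0.11, adjusted p = 0.0468), around a median of 0.28 over all genes. Both comparisons use the same Old libraries, so a low value in Old enters each of them. Side by side, the unscaled change with age and then with acetate was -0.56 and 0.47 for Ebf2 and -0.47 and 0.52 for Cebpb. It was -0.43 and 0.46 for Cebpd, -0.35 and 0.33 for Ebf1 and -0.41 and 0.25 for Cebpa. Pparg was at -0.29 and 0.23, Adipoq at -0.36 and 0.21, Zfp423 at -0.35 and 0.18 and Lpl at -0.42 and 0.12. Fabp4, called in neither comparison, was at -0.36 and 0.02 (SE 0.19 in each). The medians of all genes were -0.36 and 0.28.

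**Figure D3:**
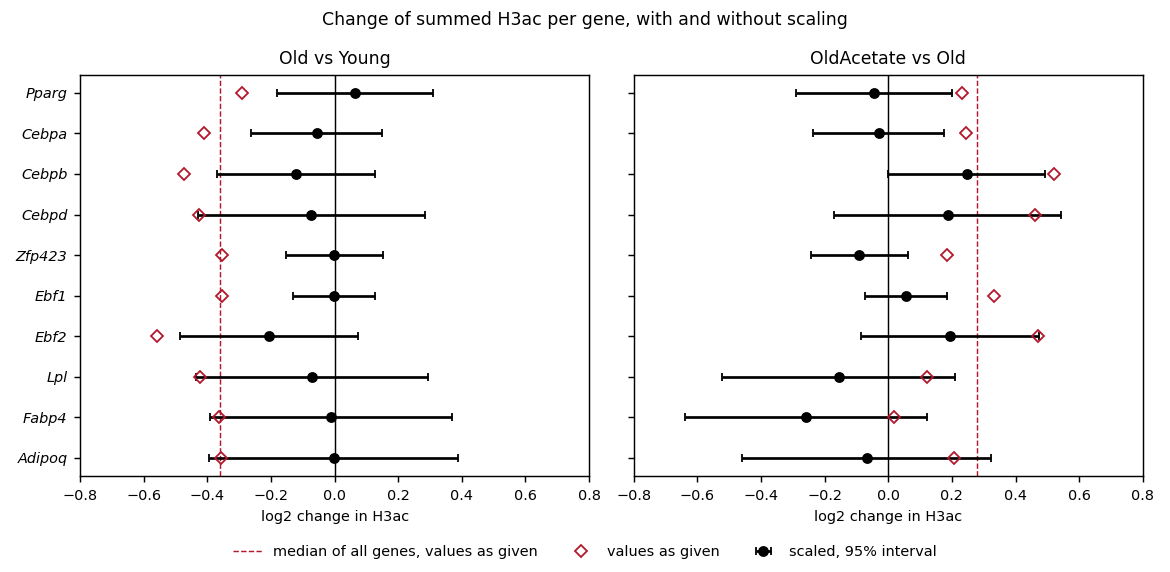
Log2 change in summed H3ac per gene (x axis), with age on the left (Old vs Young) and with acetate on the right (OldAcetate vs Old). Filled points with 95% intervals are after scaling, open diamonds are values as given, and the dashed line is the median of all genes in values as given (-0.36 and 0.28). Every interval after scaling includes 0, with that of Cebpb in OldAcetate vs Old ending at it.

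Within the long genes the sign of the scaled change differed between regions. The 4 Ebf2 regions had 1 sign in each comparison, negative with age (-0.37 to -0.11) and positive with acetate (0.18 to 0.28). Of the 13 Zfp423 regions, 5 had a negative change with age and 10 with acetate. Of the 12 Ebf1 regions, 7 had a negative change with age and 4 with acetate. Regions of 1 gene come from the same 6 libraries and are not independent.

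**Figure D4:**
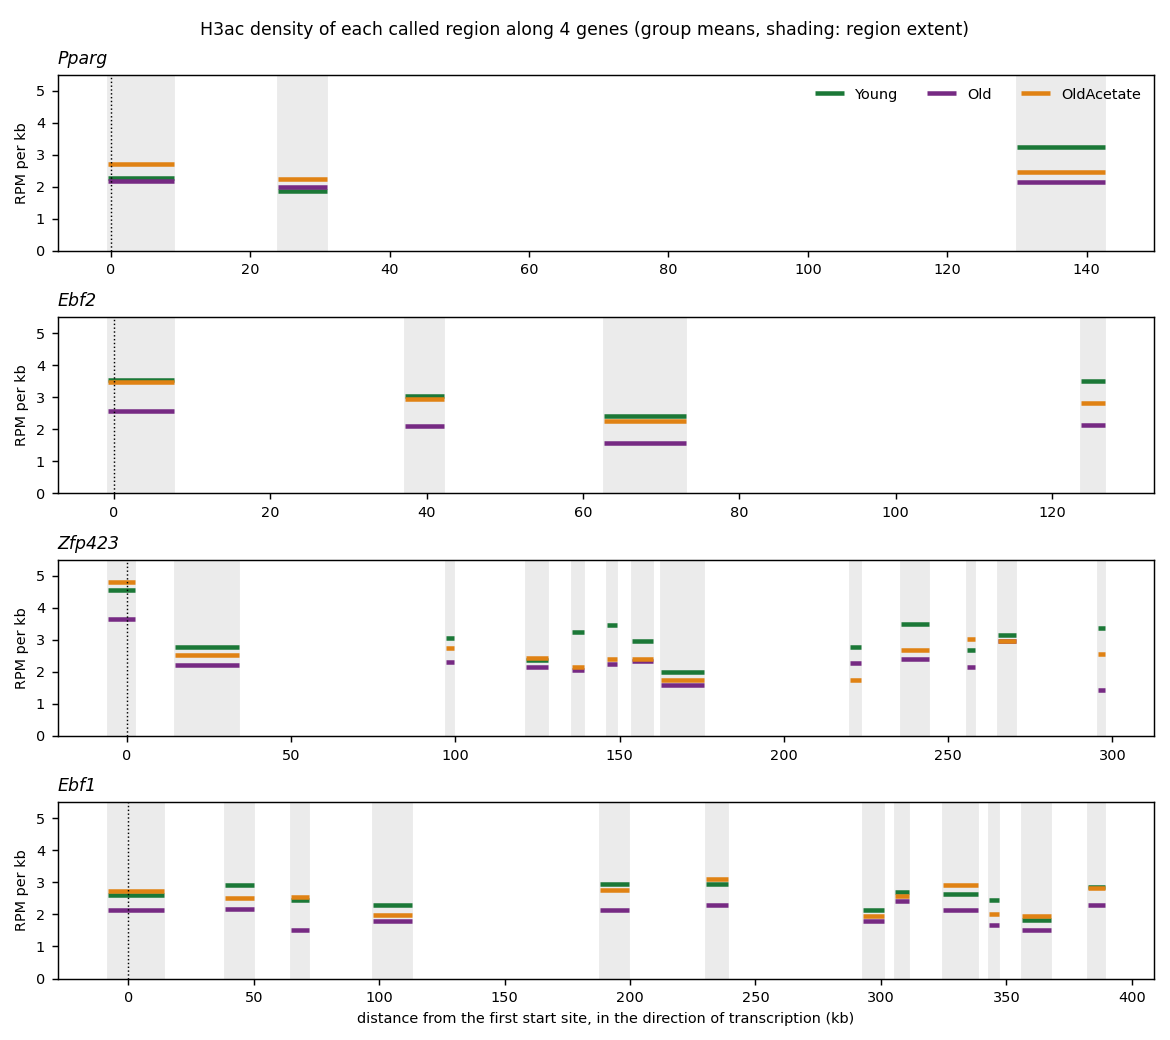
H3ac density (RPM per kb, y axis) of each region along Pparg, Ebf2, Zfp423 and Ebf1, against the distance from the first start site in kb in the direction of transcription. Coloured lines are group means (n = 2), grey shading is the extent of a region and the dotted line the first start. Old is the lowest group in the 4 Ebf2 regions, and the Pparg start region is at a like density in Young and Old.

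The third comparison sets acetate-treated old cells against young cells. The member sum of OldAcetate was 93.7% of Young (log2 difference -0.09, exact two-sided permutation p = 0.667), and leaving out Young replicate 1 gave -0.027 and leaving out Young replicate 2 gave -0.16. Both OldAcetate libraries lay below both Young libraries in 10 of 39 regions, against 29.8% of all regions, and in 4 of 10 genes, against 26.9% of all genes. The 4 genes were Cebpa (89.2% of Young), Lpl (80.7%), Fabp4 (78.3%) and Adipoq (89.7%). Cebpb and Cebpd were both at 102% of Young. Ebf1 was at 98.3% and Ebf2 at 94.3%, with overlapping libraries.

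limma called 0 of 39 regions in OldAcetate vs Young after scaling, against 0% of all, with 0 at an unadjusted p under 0.05 against 5.08% of all. It called 0 of 10 genes, against 0% of all, with 0 at an unadjusted p under 0.05 against 5.09% of all genes. edgeR gave 0 members at either threshold. Over the whole table edgeR called 0 regions and 0 genes. At an unadjusted p under 0.05 it gave 1652 of 24431 regions and 958 of 14155 genes. The scaled log2 change ran from -0.27 for Fabp4 (95% interval -0.65 to 0.11) to 0.13 for Cebpb (-0.12 to 0.37).

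The share of all reads in regions that fell in member regions does not depend on library scaling. It was 0.168% and 0.172% (Young), 0.168% and 0.164% (Old) and 0.167% and 0.176% (OldAcetate). Old differed from Young by -0.0036 percentage points and OldAcetate from Old by 0.0054, against a pooled replicate SD of 0.0045 (exact two-sided permutation p = 0.667 for each). OldAcetate differed from Young by 0.0018 points (exact permutation p = 1). The median scaled change of the 39 regions was -0.01 with age, 0.01 with acetate and 0.01 for acetate-treated old against young cells, and that of all regions was within 0.01 of 0 in each.

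Coverage was also counted for other genes of fat cell formation. Of 20 other adipogenic transcription regulators, 18 had a covered start and Mlxipl and Lmo3 had no region. Of 15 restrainers of adipogenesis, 14 had a covered start and Foxa2 had no region. Of 30 genes of lipid handling and secreted products, 22 had a covered start. Cidec, Cidea and Lep had a region but no covered start, and Cd36, Pck1, Slc2a4, Retn and Cfd had no region.

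After scaling, limma called 0 genes of these 3 lists, or of the mesenchymal, endothelial and mature fat cell marker lists, in any comparison, and edgeR likewise called 0. Over all 14155 genes limma called 0 in each comparison, and edgeR called 14 in Old vs Young and 0 in the others. The list medians with age were -0.04, 0.00 and -0.08 in the order above, and with acetate -0.07, -0.02 and 0.01, against -0.01 and 0.00 over all genes. At an unadjusted p under 0.05 there were 1 of 18 regulators with a region (lower), 0 of 14 restrainers and 3 of 25 lipid genes (1 higher, 2 lower) with age, against 5.15% of all genes. With acetate there were 1 regulator (lower), 0 restrainers and 0 lipid genes, against 5.91% of all genes. For acetate-treated old against young cells, 2 of the 18 regulators were higher and 4 lower, against 5.09% of all genes. Of the 14 restrainers 0 passed, and of the 25 lipid genes 1 was higher and 1 lower. The regulator of lowest p here was Ppargc1a, at a scaled log2 change of -0.50 ± 0.15 (SE), with an adjusted limma p of 0.972. Without scaling, limma called 11 regulators, 7 restrainers and 10 lipid genes lower in Old, to be read against 33.1% of all genes, and 0, 2 and 1 higher in OldAcetate than in Old, against 7.52%.

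The genes with the lowest p of each list had these scaled log2 changes, each with an adjusted p from limma over 0.8. In Old vs Young, Ppargc1a, a coactivator of mitochondrial genes, was at -0.32 ± 0.15 (SE) and Nr3c1, the glucocorticoid receptor, at 0.20 ± 0.11. Among restrainers, Dlk1, a preadipocyte surface protein, was at 0.31 ± 0.16 and Foxo1 at -0.13 ± 0.09. Among lipid genes, Gpd1, which supplies glycerol phosphate for triglycerides, was at -0.46 ± 0.18 and Acsl1, which activates fatty acids, at -0.24 ± 0.12. The lipid gene counted as higher above, Plin1, was at 0.42 ± 0.21. Gpd1 had 34.2 and 37.99 RPM (Young), 20.8 and 19.9 (Old) and 30.2 and 21.3 (OldAcetate). Both Old libraries lay below both Young ones, as they did in 71.5% of all genes. Gpd1 was picked by its p in this comparison, so this order is no further support for a change.

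In OldAcetate vs Old, Cebpg, a further C/EBP family gene, was at -0.22 ± 0.10 (SE) and Klf15 at -0.40 ± 0.20. Among restrainers, Zfp521, which antagonises Zfp423 and the EBF factors, was at -0.10 ± 0.06 and Gata2 at 0.18 ± 0.13. Among lipid genes, Dgat1, which completes triglyceride synthesis, was at 0.33 ± 0.19 and Aqp7, a glycerol channel, at -0.36 ± 0.27.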

How the data were processed

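H3ac CUT&RUN of 6 libraries was analysed from a single table that the authors deposited, with 1 column per library for 24431 jointly called regions. Bowtie2, Picard and mm10 are named in the submitters' processing notes, with no versions or roles, and the caller is not given in the sources used here. The deposited values are RPM, although the table is named for RPKM, because 100% of the values in each column were whole multiples of the value of 1 read whatever the region length (tolerance 0.01). Reads were recovered from these steps. Yeast DNA was present in the stop buffer, and whether it entered the scaling is not stated. Region bounds were read as mm10, since 45.1% of regions overlapped a start site and 12.8% or 13.1% did when shifted by 100000 bp.

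Genes and starts came from GENCODE M21, sequences from RefSeq (GRCm38.p6). limma 3.58.1 in R 4.3.3 was fitted on log2(RPM + 0.5) over all regions, and over sums per gene for 14155 protein-coding genes. The median deviation of each library from the feature means was subtracted, all 6 libraries entered 1 fit of group means (eBayes with trend and robust), and Benjamini-Hochberg values over all features were read at 0.05. Fold changes on this scale understate those of low regions. Sums and shares were compared with exact two-sided permutation tests. The p-values of named genes are from limma unless edgeR 4.0.16 is named. The fits were tested on simulated data. Same-numbered libraries did not deviate together (correlations of 0.0093, -0.034 and -0.043), and replicates differed by more than counting noise (chi-square per degree of freedom of 1.10 to 1.19).

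The named genes are the 10 members, with the start region in every library, and for each other list with no call the 2 genes of lowest p with age and with acetate. Members and lists were chosen with earlier results of these data known. Part of the hematopoietic marker list is not reported here. Alternatives were no scaling, quantile normalization, pseudocounts of 0.1 and 1, removal of the lowest 25%, a replicate block, edgeR with RLE factors on recovered reads, each library left out, extensions of 0 and 10 kb, and means over genes.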

Additional observations from a re-analysis of the deposited data

How the results depend on the processing

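The counts of called members (0 regions and 0 genes after scaling in each comparison) changed under 1 alternative, the values as given, with 3 regions and 5 genes in Old vs Young and 3 genes in OldAcetate vs Old. That alternative keeps the shift of the whole table, and the median member change under it was -0.363, 0.245 and -0.105 in the 3 comparisons. With the replicate block, 0 regions and 0 genes were of the members were called in each comparison. Over all 14155 genes the block moved the count of calls from 0 to 14 in Old vs Young and from 0 to 10 in OldAcetate vs Old, none of them a member, although the replicate numbers only name the libraries. Leaving out libraries, the median member change in OldAcetate vs Old ran from -0.0473 to 0.0866, the upper end without OldAcetate replicate 1, and the member share in OldAcetate vs Young from -0.00298 to 0.00656 percentage points. The summed level kept its sign under every alternative run. The filter on low values kept 30 of the 39 member regions. No alternative to a scaled gene change passed the threshold except the values as given, so the signs below belong to changes not told from 0, and the cause of each was not tested.

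As given, the sign turned for Pparg (-0.290, 0.231 and -0.0582 in Old vs Young, OldAcetate vs Old and OldAcetate vs Young), for Cebpa (0.245), Zfp423 (0.184), Lpl (0.120), Fabp4 (0.0167) and Adipoq (0.207) with acetate in old cells, and for Ebf1 in OldAcetate vs Young (-0.0234). In Old vs Young, Zfp423 was at 0.00403 (quantile normalization), 0.00433 (pseudocount 0.1), 0.00142 (low filter) and 9.5e-05 (10 kb), and Ebf1 at 0.00316 (quantile normalization), 0.00295 (pseudocount 0.1) and 0.00254 (edgeR). With edgeR, Fabp4 was at 0.0269 and Adipoq at 0.00921 in the same comparison. In OldAcetate vs Old, the gene body alone gave 0.000322 for Pparg and 0.0107 for Lpl, and an extension of 10 kb gave 0.0251 for Adipoq.

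With 1 library left out, the change in Old vs Young ran from -0.0458 to 0.175 for Pparg, -0.271 to 0.0286 for Cebpb, -0.291 to 0.146 for Cebpd, -0.065 to 0.0646 for Zfp423, -0.0424 to 0.0411 for Ebf1, -0.421 to 0.01001 for Ebf2, -0.159 to 0.0188 for Lpl, -0.338 to 0.319 for Fabp4 and -0.187 to 0.182 for Adipoq. In OldAcetate vs Old it ran from -0.182 to 0.093 for Pparg, -0.108 to 0.0460 for Cebpa, -0.194 to 0.0107 for Zfp423, -0.0170 to 0.404 for Ebf2 and -0.587 to 0.0697 for Fabp4. In OldAcetate vs Young it ran from -0.118 to 0.157 for Pparg, -0.0231 to 0.275 for Cebpb, -0.106 to 0.3327 for Cebpd, -0.193 to 0.0107 for Zfp423, -0.227 to 0.205 for Ebf2 and -0.256 to 0.114 for Adipoq. The lone library of a group was then assumed to vary like the others.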

Other observations

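Regions between 5 and 50 kb from the gene bodies were not counted for the members, and 16 such regions lay near 8 of the 10 genes. Zfp423 and Ebf1 had none.

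Adipoq, whose own start was uncovered, had 3 regions upstream. The nearest, 8.54 kb from the gene and over no coding gene, had 7.24 and 8.17 RPM (Young), 5.55 and 4.38 (Old) and 8.06 and 7.09 (OldAcetate). The next regions overlapped Rfc4 (15.5 kb away) and Eif4a2 (33.0 kb away), genes of DNA replication and of translation. Pparg had an upstream region 37.5 kb away, with 39.5 and 27.0 RPM (Young), 26.8 and 29.8 (Old) and 35.3 and 29.2 (OldAcetate), in which the groups overlapped. Cebpa had regions 25.8 kb before and 40.1 kb after the gene, each with 33.9 and 33.9 RPM in the Young libraries, and the Old libraries were lower in both, at 31.4 and 20.3 and at 24.5 and 23.5 RPM.

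Ebf2 had a downstream region 45.1 kb away whose name held the Young code alone. It had 11.2 and 9.80 RPM (Young), 5.55 and 6.76 (Old) and 6.72 and 6.67 (OldAcetate), so that the treated and untreated old libraries all lay below the young ones. A call in Young alone favours this order. Of all regions, 60.2% had both Old libraries below both Young ones, and 29.8% had both OldAcetate libraries below them. The regions named here were chosen after their values were seen, and no test was run on them.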
